A study of Sus scrofa with 9 samples.

Results

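The 10 genes described here encode enzymes that remove superoxide and peroxides: catalase (CAT), the superoxide dismutases SOD1, SOD2 and SOD3, the glutathione peroxidases GPX1, GPX3 and GPX4, and the peroxiredoxins PRDX1, PRDX3 and PRDX6. They were chosen by symbol, with CAT included as the gene whose transcript ends the study examined. Each symbol matched 1 of the 19535 gene rows, and all 10 were among the 13662 genes with enough counts for testing. The libraries came from porcine valvular interstitial cells (PVICs), the fibroblast-like cells of the aortic valve leaflet, taken from wild-type pigs aged 4 to 5 months and grown in culture. The 3 treatments lasted 3 days by the labels, with 3 libraries per group. The control group was kept in DMEM, the OIM group in osteogenic medium, and the bFGF group in the same osteogenic medium with 50 ng/mL basic fibroblast growth factor. Per the labels, the OIM contained sodium dihydrogen phosphate at 2 mmol/L, ascorbic acid at 50 µg/mL and insulin at 1e-07 mol/L, so the bFGF group carried all of these as well. The labels do not say whether replicates were separate animals or separate wells of 1 culture, so the p-values measure only the spread between these libraries, which may be technical. The paper gives a shorter treatment time than the labels and a poly-A kit in place of ribosomal RNA removal.

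Superoxide is a by-product of respiration and of membrane oxidases, and superoxide dismutases convert it to hydrogen peroxide: SOD1 in the cytosol, SOD2 in the mitochondrial matrix and SOD3 outside the cell. Catalase in the peroxisome splits hydrogen peroxide into water and oxygen. Glutathione peroxidases reduce peroxides with glutathione, and peroxiredoxins reduce them through a reactive cysteine that is mostly recharged by thioredoxin. In the valve, these enzymes are studied because reactive oxygen species accompany calcification of the leaflet.

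Gene counts totalled 57075793 to 67371523 in the control and OIM libraries and 46773376 to 48270827 in the bFGF libraries. Libraries were scaled by TMM (factors of 0.937 to 0.967 for control and OIM and 1.10 to 1.11 for bFGF), and levels are given as CPM, the counts relative to these scaled library totals. The spread between replicates exceeded counting noise (mean chi-square per gene of 4.66 to 18.9 between 2 libraries), and OIM replicate 2 stood farthest from its group. Markers of fibroblast-like cells were abundant (COL1A1, COL1A2, COL3A1, VIM, DCN, LUM, THY1 and PDGFRB). Their summed level was 62622 to 67783 CPM in control, 59399 to 62630 in OIM and 35776 to 36146 in bFGF. In bFGF against OIM, at the thresholds given below, 4 of the 8 were called lower and 1 higher. Of all genes tested, 18.4% were called lower and 17.7% higher. COL1A1 had 23879 to 26115 CPM in OIM and 9735 to 10140 in bFGF, but VIM had 5498.6 to 6066.5 and 8908 to 9069. The 6 endothelial markers summed to 20.5 to 22.99 CPM in control, 20.1 to 21.2 in OIM and 31.9 to 34.5 in bFGF, and none of them was at 0 throughout a group. The 6 leukocyte markers summed to at most 3.56 CPM and the cardiomyocyte markers to at most 3.67 CPM in any library, and TNNT2 of heart muscle was at 0 in all 9. The part of these marker differences in the results for the 10 genes was not tested, and in bulk RNA fewer cells of a type and less RNA per cell cannot be told apart.

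GPX1, GPX3 and GPX4 are selenoproteins, in which an in-frame stop codon is read as selenocysteine, the residue that carries out the reaction. The codon and its coding context are shown because they set these 3 genes apart from the other 7 and tie them to the selenoprotein machinery described later. The sequences were read from Sscrofa11.1 at the codons that RefSeq annotates as selenocysteine, in the direction of the transcript. All 3 genes lie on the minus strand, the windows lie within 1 coding exon each, and capitals mark the codon.
GPX1 (chr13:31917168-31917194): gtagcgtcgctcTGAggcacaacggtg
GPX3 (chr16:71984086-71984112): gtggccagctacTGAggcctgacgggc
GPX4 (chr2:77322621-77322647): gtggcctctcaaTGAggcaagacggag
The codon is number 52 of 206 in GPX1, 73 of 226 in GPX3 and 73 of 197 in GPX4, counted from 1 at the start codon.

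Reads were first compared between genes per length, as CPM per kilobase of annotated exons. In the control group SOD2 had the highest level, 579 ± 27.8 CPM per kilobase (SD, n = 3), followed by SOD3 with 280.2 ± 21.2. PRDX1 (188 ± 6.67), GPX1 (177 ± 6.43), PRDX6 (156 ± 5.34), GPX4 (149 ± 5.86) and SOD1 (120.4 ± 6.12) formed a middle range, in which PRDX1 and GPX1, and PRDX6 and GPX4, overlapped between libraries. PRDX3 had 51.2 ± 1.34, CAT 23.1 ± 1.12 and GPX3 3.20 ± 0.383 CPM per kilobase, and none of these 3 overlapped a neighbour. The OIM group kept SOD2, SOD3 and PRDX1 in the first places and PRDX3, CAT and GPX3 in the last, while PRDX6, GPX4 and GPX1 overlapped in turn. In the bFGF group PRDX1 came first with 317 ± 2.90 CPM per kilobase, above SOD3 with 225 ± 10.6. SOD2 stood in place 6 there with 122 ± 7.20, where it overlapped GPX4 (125 ± 5.76), which in turn overlapped SOD1 (126 ± 1.19). With the longest transcript in place of all exons, the level of PRDX1 became 238 in control, 205 in OIM and 400 CPM per kilobase in bFGF, and that of CAT 24.6 in bFGF.

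**Figure D1:**
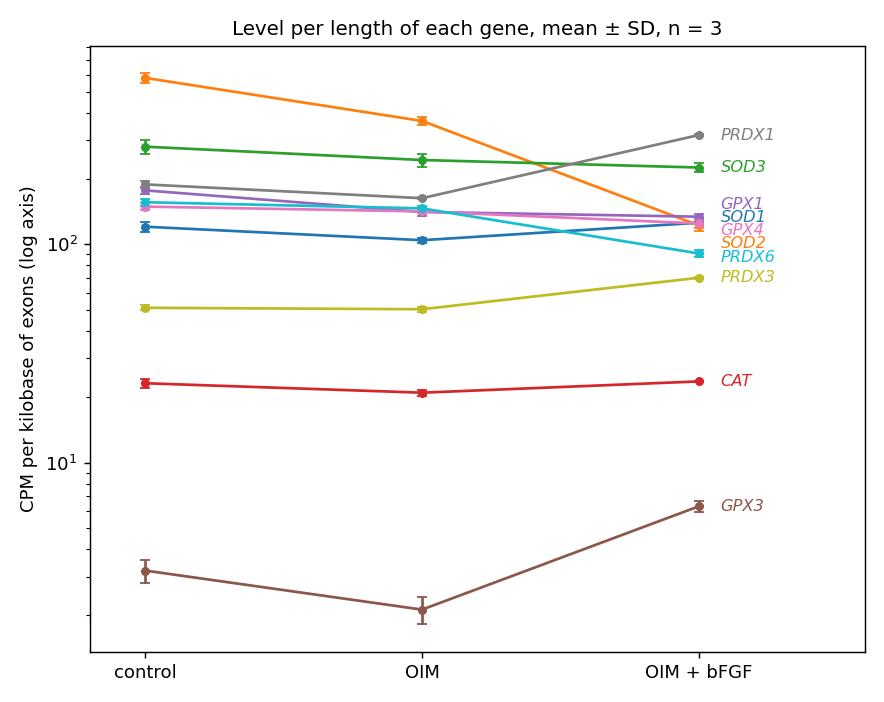
Level of each gene in CPM per kilobase of annotated exons (log axis) in the control, OIM and bFGF groups, with points and bars for the mean and SD of 3 libraries. SOD2 went from 579 in control to 122 in bFGF, while PRDX1 reached 317 in bFGF and CAT stayed between 20.9 and 23.5.

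SOD2, the manganese enzyme of the mitochondrial matrix (chromosome 1, 7679352 to 7689564 of Sscrofa11.1, 5 exons), fell with both treatments. Its level was 988, 1001 and 915 CPM in the control libraries, 583, 630 and 631 CPM in OIM, and 211, 211 and 190 CPM in bFGF. The 3 groups did not overlap in any pair. Against control, the change in OIM, as a log2 fold change with its standard error (SE), was -0.66 (SE 0.045, edgeR adjusted p = 7.32e-09), a level 1.57-fold lower. Against OIM, bFGF gave -1.59 (SE 0.047, edgeR adjusted p = 1.79e-16), 3.01-fold lower, and against control -2.24 (SE 0.048, edgeR adjusted p = 1.33e-18), 4.74-fold lower. Among all genes tested, the change of SOD2 stood at percentile 2.62, 4.84 and 2.55 of the log2 changes in these comparisons. Each pair of these comparisons shares the libraries of 1 group, so they are not independent.

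SOD1, the copper and zinc enzyme of the cytosol (chromosome 13, 195326573 to 195335273), had 79.6, 72.1 and 77.7 CPM in control, 68.1, 64.8 and 66.0 CPM in OIM, and 80.6, 79.1 and 79.6 CPM in bFGF. OIM was thus below both other groups without overlap, by -0.21 against control (SE 0.044, edgeR adjusted p = 0.00337), and bFGF was above OIM by 0.27 (SE 0.044, edgeR adjusted p = 2.48e-05), both under the fold limit of 0.5 that a call also needed. SOD1 shares 96 bases at the opposite strand with SCAF4. That gene had 53.8 to 61.1 CPM in control, 56.2 to 58.6 in OIM and 71.4 to 72.1 in bFGF. The part of SCAF4 reads in the counts of SOD1 was not tested. SOD3, the secreted enzyme that binds heparan sulfate (chromosome 8, 18796633 to 18802156), had 441, 513 and 472 CPM in control, 440, 415 and 384 CPM in OIM, and 387, 396 and 361 CPM in bFGF. Its OIM libraries lay just under the control libraries, and its bFGF and OIM libraries overlapped. The log2 fold change of SOD3 was -0.20 for OIM against control (edgeR adjusted p = 0.0127) and -0.32 for bFGF against control (edgeR adjusted p = 2.26e-05), neither of which was called. Over the alternative fits described below, the latter ranged from -0.37 to -0.092.

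CAT (chromosome 2, 26493664 to 26533881, 13 exons in its longest transcript) had 57.9, 53.6 and 58.6 CPM in control, 52.3, 52.2 and 49.5 CPM in OIM, and 58.3, 57.7 and 57.5 CPM in bFGF. The OIM libraries were the 3 lowest of the 9, and the bFGF libraries lay within the range of the control libraries. The log2 fold change was -0.14 for OIM against control (SE 0.048, edgeR adjusted p = 0.0517), which missed the threshold but passed it at 0.0455 with at least 10 counts required in every library, and 0.17 for bFGF against OIM (SE 0.048, edgeR adjusted p = 0.00358), which passed the adjusted p but not the fold limit. For bFGF against control it was 0.028 (SE 0.048, edgeR adjusted p = 0.612). Scaled by library totals alone, CAT was 0.39 against OIM (edgeR adjusted p = 9.43e-07) and 0.25 against control (edgeR adjusted p = 0.000191), so the latter passed the adjusted p but not the fold limit. Without control replicate 2, the lowest control library, the TMM-scaled value against control changed sign to -0.013 and the change of OIM against control was -0.18 (edgeR adjusted p = 0.0187). In the other fits without 1 library, the latter missed the threshold, as without control replicate 3, where it was -0.12 (edgeR adjusted p = 0.202). These whole-gene counts of 2829 to 3501 per library do not separate the ends of the transcript.

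**Figure D2:**
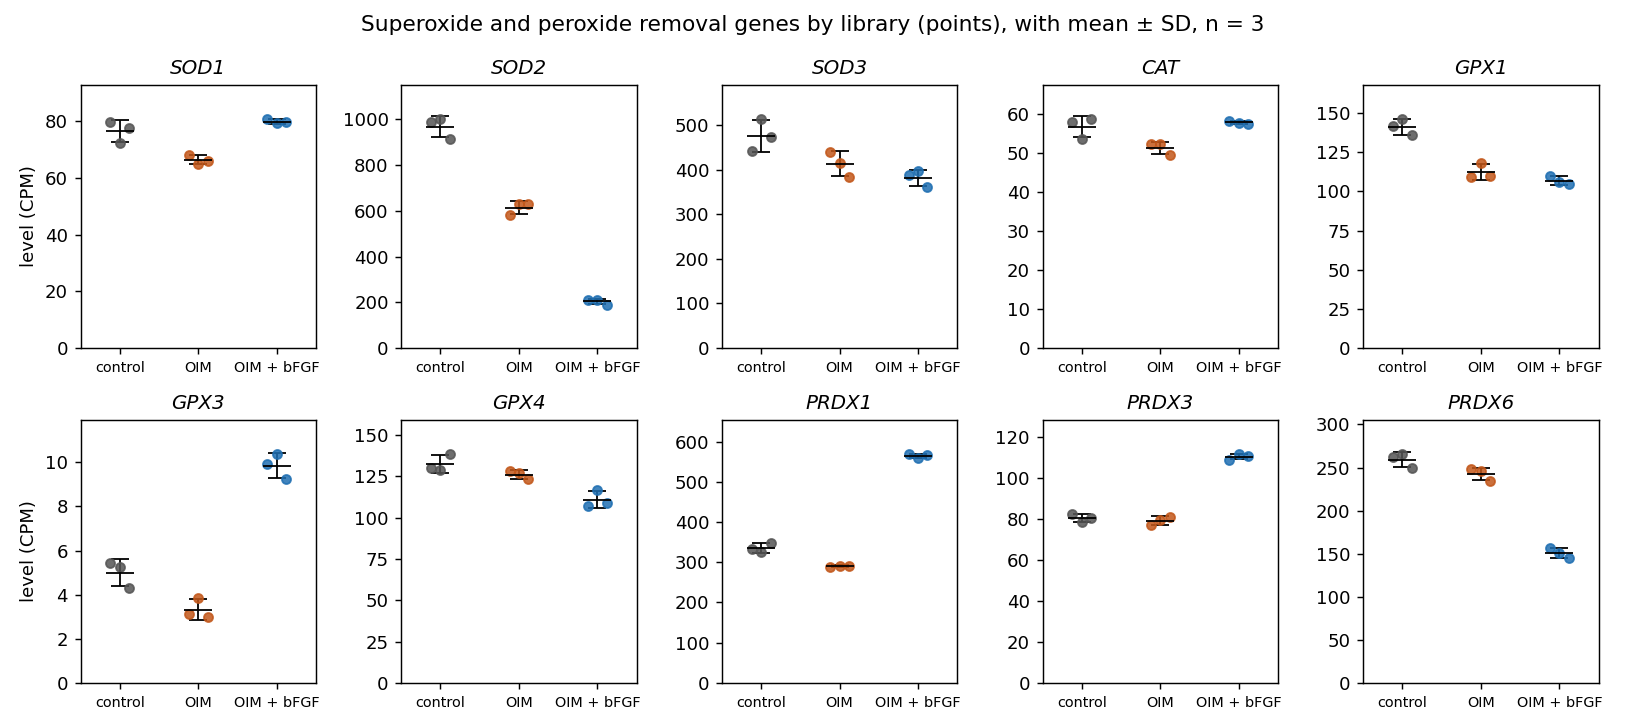
Level in CPM (axis from 0) of each of the 10 genes in every library of the control, OIM and bFGF groups, with the mean and SD of 3 libraries as black lines. SOD2 falls from group to group, GPX3, PRDX1 and PRDX3 are highest in bFGF, PRDX6 is lowest in bFGF, and CAT and SOD1 are lowest in OIM.

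GPX1, the cytosolic and mitochondrial enzyme (chromosome 13, 31916269 to 31917337), had 142, 146 and 136 CPM in control, 109, 118 and 110.2 CPM in OIM, and 110, 106 and 105 CPM in bFGF. Every control library was above every treated library, and OIM and bFGF overlapped. The log2 fold change of GPX1 was -0.33 for OIM against control (SE 0.042, edgeR adjusted p = 1.97e-05) and -0.40 for bFGF against control (SE 0.042, edgeR adjusted p = 5.38e-08), both under the fold limit. GPX4, which reduces lipid peroxides in membranes (chromosome 2, 77321568 to 77323931), had 129 to 138 CPM in control, 123 to 128 CPM in OIM and 107 to 117 CPM in bFGF. Its change of -0.26 for bFGF against control (SE 0.043, edgeR adjusted p = 2.22e-05) was also not called. Over the alternative fits described below, the change against control ranged from -0.30 to -0.032 for GPX4 and from -0.43 to -0.18 for GPX1.

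GPX3, the secreted enzyme of plasma and extracellular fluid (chromosome 16, 71980467 to 71989011), was the lowest of the 10 in level. It had 5.43, 5.26 and 4.32 CPM in control, 3.12, 3.85 and 2.98 CPM in OIM, and 9.94, 10.4 and 9.23 CPM in bFGF, from 169 to 540 counts per library. The groups did not overlap, with OIM lowest and bFGF highest. GPX3 fell in OIM against control by 0.59 in log2 fold change (SE 0.14, edgeR adjusted p = 0.00564) and rose in bFGF against OIM by 1.57 (SE 0.13, edgeR adjusted p = 2.13e-09), a level 2.96-fold higher. Against control the bFGF libraries were 1.97-fold higher, a log2 fold change of 0.98 (SE 0.13, edgeR adjusted p = 1.11e-06). Its coefficient of variation within groups was 5.87% to 14.2%, against 0.707% to 7.57% for the other 9 genes.

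PRDX1, the abundant cytosolic enzyme with a pair of catalytic cysteines (chromosome 6, 165847390 to 165859918), had 333, 325 and 349 CPM in control, 287, 292 and 291 CPM in OIM, and 569, 559 and 566 CPM in bFGF. The bFGF libraries were above all others and the OIM libraries below all others. PRDX1 rose in bFGF against OIM by 0.96 in log2 fold change (SE 0.034, edgeR adjusted p = 3.22e-15), 1.95-fold, and against control by 0.75 (SE 0.034, edgeR adjusted p = 1.08e-13). OIM against control gave -0.21 (SE 0.034, edgeR adjusted p = 0.00026), under the fold limit.

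PRDX6, which has a single catalytic cysteine, uses glutathione and also acts on phospholipids (chromosome 9, 115857629 to 115868898), had 262, 266 and 249 CPM in control, 248, 246 and 235 CPM in OIM, and 157, 150.5 and 145 CPM in bFGF. The bFGF libraries were the 3 lowest, well apart from the rest. PRDX6 fell in bFGF by 0.69 against OIM (SE 0.040, edgeR adjusted p = 5.33e-12) and by 0.78 against control (SE 0.040, edgeR adjusted p = 6.3e-13). With libraries scaled by their totals alone, the change of PRDX6 against OIM was -0.46 and was not called. It shares 554 bases at the opposite strand with LOC100624136, which had at most 0.404 CPM in any library.

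PRDX3, the peroxiredoxin of the mitochondrial matrix (chromosome 14, 129079050 to 129090790), had 82.5, 78.3 and 80.2 CPM in control, 76.9, 79.5 and 80.8 CPM in OIM, and 109, 112 and 110.5 CPM in bFGF. Control and OIM overlapped, and the bFGF libraries were above both. The log2 fold change of 0.48 for bFGF against OIM (SE 0.040, edgeR adjusted p = 1.55e-09) stood just under the fold limit, and without OIM replicate 2 it was 0.501 and PRDX3 was called. No other genomic locus matched a transcript of the 10 genes at 90% identity over at least 200 bases, so near-identical copies of that kind were not found.

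**Figure D3:**
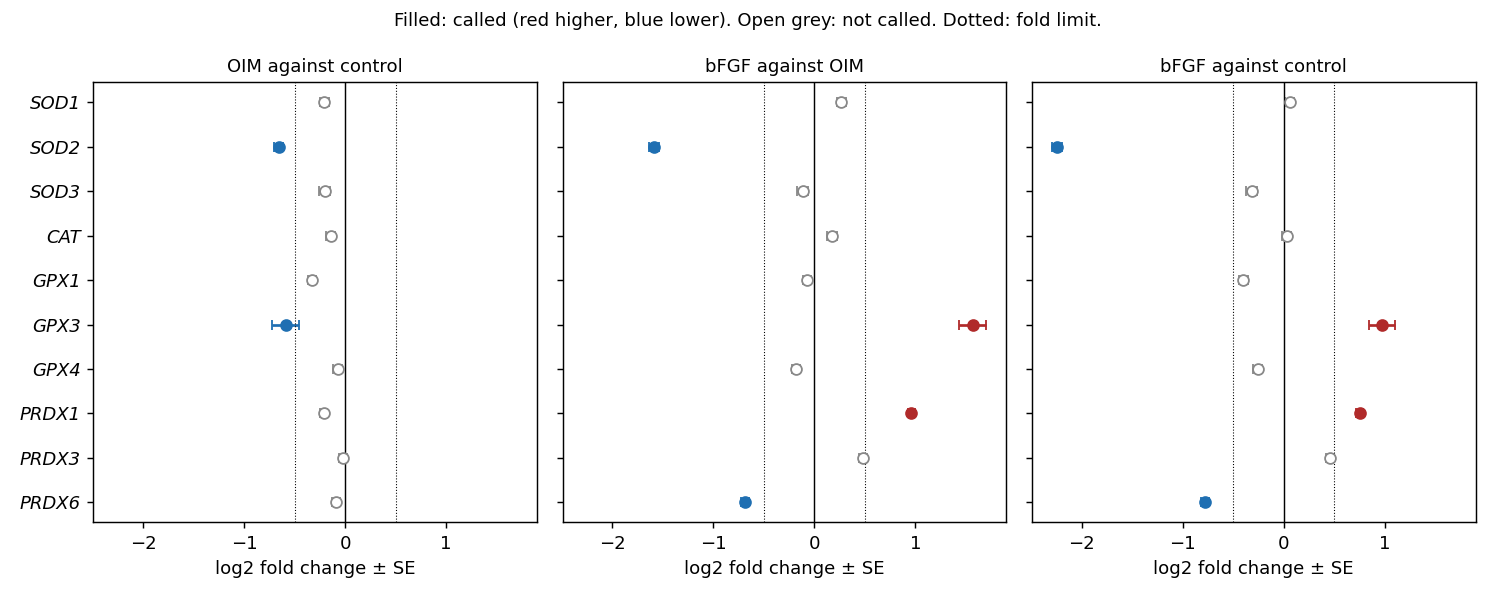
Log2 fold change of each gene with its standard error (horizontal axis) in the 3 comparisons, from the edgeR fit on 9 libraries. Filled points were called (SOD2 and GPX3 in OIM against control, SOD2, GPX3, PRDX1 and PRDX6 in the others), open points were not, and dotted lines stand at the fold limit of 0.5 in either direction.

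All 10 genes had a log2 fold change below 0 in OIM against control, from -0.66 to -0.022, with a median of -0.20 beside -0.0019 over all genes tested. Of the 10, 2 were called lower, where 0.864% of all genes tested were, and 0 were called higher, where 1.49% were (edgeR, with 0 also in DESeq2 and at an unadjusted p under 0.05 beyond the fold limit). At the adjusted p alone 6 were lower, against 5.87% of all genes, and in 9 of 10 the OIM libraries all lay under the control libraries, against 14.2% of all genes. The members were chosen with earlier results of these data known, so the shares are a description only. In bFGF against OIM, 4 of the 10 were called, GPX3 and PRDX1 higher and SOD2 and PRDX6 lower, where 36.2% of all genes tested were called, 17.7% higher and 18.4% lower. This share is near the background. The adjusted p alone was passed by 8 of the 10, against 67.4% of all genes, and in 8 of the 10 the libraries did not overlap, against 72.1%. The median of the 10 was 0.050 beside -0.0029 over all genes. In bFGF against control the same 4 were called in the same directions, where 39.0% of all genes were, 18.9% higher and 20.0% lower. There too 8 of 10 passed the adjusted p alone and 8 of 10 did not overlap, against 70.2% and 73.7% of all genes. When libraries were scaled by their totals alone, the median of all genes moved to 0.22 for bFGF against OIM and to 0.21 for bFGF against control. Under that scaling PRDX6 was -0.46 against OIM and no longer called, PRDX3 was 0.70 and called, and SOD3, GPX1 and GPX4 changed sign in bFGF against OIM to 0.11, 0.15 and 0.038. Against control, PRDX3 was 0.68 and also called with library totals alone, so 3 members were higher and 2 lower. The median of the 10 in bFGF against control went from -0.11 to 0.11.

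Ratios of reads per kilobase within a library do not depend on the scaling between libraries, and are given as a description. The 2 enzymes of the mitochondrial matrix, SOD2 and PRDX3, stood at a ratio of 11.3 ± 0.652 in control, 7.29 ± 0.163 in OIM and 1.74 ± 0.108 in bFGF (SD, n = 3). The ratio of SOD2 to SOD1 was 4.82 ± 0.408, 3.52 ± 0.237 and 0.973 ± 0.0563 in the same order. That of SOD2 to CAT was 25.1 ± 2.26, 17.6 ± 1.17 and 5.19 ± 0.283 in the same order, with no overlap between groups. PRDX1 to PRDX6 stood at 1.21 ± 0.0852 in control and 1.11 ± 0.0392 in OIM, which overlapped, and at 3.49 ± 0.123 in bFGF. Of the summed level of the 10 genes, SOD2 made up 36.9% to 39.2% in control, 29.2% to 31.98% in OIM and 10.98% to 11.8% in bFGF.

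**Figure D4:**
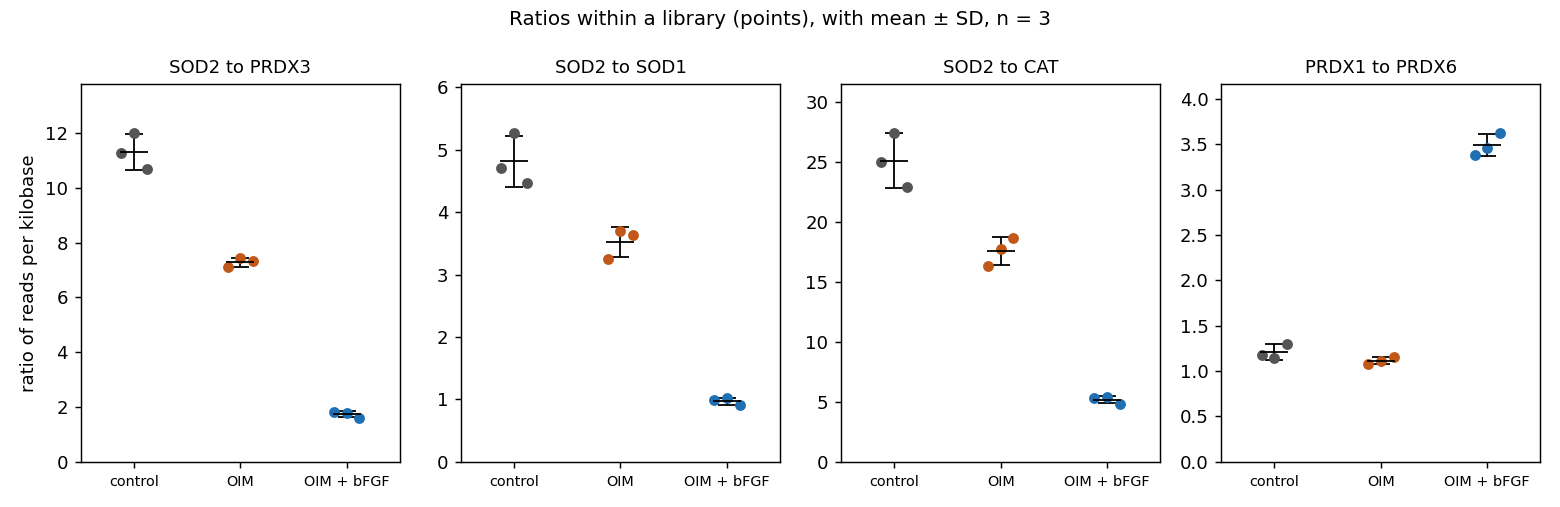
Ratio of reads per kilobase of exons between 2 genes within each library (axis from 0), for SOD2 to PRDX3, SOD2 to SOD1, SOD2 to CAT and PRDX1 to PRDX6, with the mean and SD of 3 libraries per group. The ratios with SOD2 are lowest in bFGF (1.74, 0.973 and 5.19) and PRDX1 to PRDX6 is highest there (3.49).

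Across the 9 libraries, CAT followed SOD1 more closely than any other of the 10 genes (Pearson r = 0.95 of log2 CPM), and PRDX1, PRDX3 and GPX3 followed each other with r from 0.92 to 0.98. SOD2 and PRDX6 had r = 0.98. All these values rest on 9 libraries in 3 groups, so they largely restate the order of the group means. Among 11845 genes with a mean of at least 1 CPM, the 3 most like CAT were RFFL, a ubiquitin ligase (r = 0.98), APLF, a DNA repair factor (r = 0.97), and GNAZ, a G protein subunit (r = 0.96), and 17 genes reached r = 0.9. For SOD2 the 3 were CTSH, a lysosomal protease, ABI3BP, a matrix protein, and LOXL2, a lysyl oxidase, each with r = 0.998, and 2510 genes reached 0.9. The 3 most like GPX3 were BMP2K, UGGT1 and RAB13 (r from 0.986 to 0.993), those most like PRDX1 were HMGN1, LGMN and SLC23A2 (r of at least 0.994), and those most like PRDX6 were TMEM248, RAMP1 and ACAT1 (r from 0.998 to 0.999).

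The genes around these enzymes were followed in 6 lists with 58 genes, of which 53 were tested. In OIM against control, 0 of the 53 were called in edgeR, 0 in DESeq2 and 0 at an unadjusted p under 0.05 beyond the fold limit, beside 1.49% of all genes tested called higher and 0.864% lower, so the count is near the background. In bFGF against OIM 7 were called higher and 6 lower, beside 17.7% and 18.4% of all genes tested.

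Among sources of superoxide and hydrogen peroxide, 10 of 14 genes were tested, 3 were called lower and 0 higher in bFGF against OIM, beside 18.4% and 17.7% of all genes (0 higher also in DESeq2 and at an unadjusted p under 0.05 beyond the fold limit). NOX4, the NADPH oxidase of fibroblast-like cells that releases hydrogen peroxide, had 138, 121 and 138 CPM in OIM and 70.6, 72.9 and 70.4 CPM in bFGF, a log2 fold change of -0.89 (SE 0.050, edgeR adjusted p = 3.5e-12). ERO1A, which makes hydrogen peroxide while oxidizing proteins in the endoplasmic reticulum, had 101, 102 and 100 CPM in OIM and 41.1, 42.2 and 41.5 CPM in bFGF (-1.28, SE 0.049, edgeR adjusted p = 9.86e-15). Neither gene overlapped between these groups. DUOX1 was also called lower (-1.92, edgeR adjusted p = 0.0196), at a level of at most 0.535 CPM in OIM and 0.173 CPM in bFGF. With at least 10 counts required in every library, 2 in place of 3 genes of the list were called lower in this comparison. NCF1, a cytosolic oxidase subunit at a similar level, was called lower only in bFGF against control (-1.65, edgeR adjusted p = 0.0113). CYBA, MAOA, MAOB and NCF4 were not called in any comparison. The median of the list was -0.28 beside -0.0029 over all genes, and -0.063 beside 0.22 with library totals alone.

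Thioredoxin and glutathione recharge the peroxidases. Of the 12 genes of thioredoxin and glutathione supply, 4 were called higher and 1 lower in bFGF against OIM, beside 17.7% and 18.4% of all genes, with a median log2 fold change of 0.25 beside -0.0029 over all genes. With library totals alone that median was 0.47 beside 0.22 over all genes, with 5 genes called higher. GCLC, the catalytic subunit that limits glutathione synthesis, rose from 22.7, 22.99 and 22.6 CPM in OIM to 50.1, 51.3 and 54.9 CPM in bFGF (1.19, SE 0.069, edgeR adjusted p = 5.34e-12). GLRX, glutaredoxin, rose from 54.0 ± 2.92 to 102 ± 1.37 CPM (SD, n = 3; 0.91, edgeR adjusted p = 2.88e-12), and TXN, the cytosolic thioredoxin that recharges PRDX1, from 232 ± 10.9 to 349 ± 3.67 CPM (0.58, edgeR adjusted p = 4.17e-10). TXNRD2, the mitochondrial thioredoxin reductase, which was named for this comparison after its value was seen, rose by 0.55 (edgeR adjusted p = 0.000472). TXNRD3 fell from 31.6 ± 3.61 to 11.3 ± 1.19 CPM (-1.49, SE 0.091, edgeR adjusted p = 1.43e-11). The regulatory glutathione subunit GCLM, at 0.12, and the thioredoxin reductase TXNRD1, at 0.36, were not called.

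The counts of the other lists in bFGF against OIM stand beside 17.7% of all genes tested called higher and 18.4% lower. EEFSEC, the elongation factor that delivers selenocysteine, was the 1 of 7 selenoprotein synthesis genes called. It went from 10.3 ± 0.306 CPM in OIM to 16.1 ± 2.14 CPM in bFGF (0.64, SE 0.096, edgeR adjusted p = 6.11e-06). With library totals alone, 2 genes of that list were called higher. Of the other peroxidases and peroxiredoxins, 5 of 6 were tested and 0 were called in bFGF against OIM, with 0 also in DESeq2 and at an unadjusted p under 0.05 beyond the fold limit but 1 higher with library totals alone, and GPX2 had 0 counts in every library. In copper supply, which includes the SOD1 chaperone CCS at -0.04, 0 of 4 were called, with 0 also in DESeq2, at an unadjusted p under 0.05 beyond the fold limit and with library totals alone. Of the 15 peroxisome assembly genes, 2 were called higher, among them PEX11A (0.56), and 2 lower, PEX10 (-0.80) and PEX2 (-0.70). Without OIM replicate 1, OIM replicate 3 or bFGF replicate 3, 1 was called higher. PEX5, the import receptor that carries catalase, had -0.17 and was not called. With library totals alone PEX2 was -0.48 and not called. The medians of the lists of other peroxidases, copper supply and peroxisome assembly changed sign from -0.016, -0.057 and -0.093 to 0.21, 0.16 and 0.13. The median of all genes moved alike, from -0.0029 to 0.22, so these sign changes follow from the scaling.

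**Figure D5:**
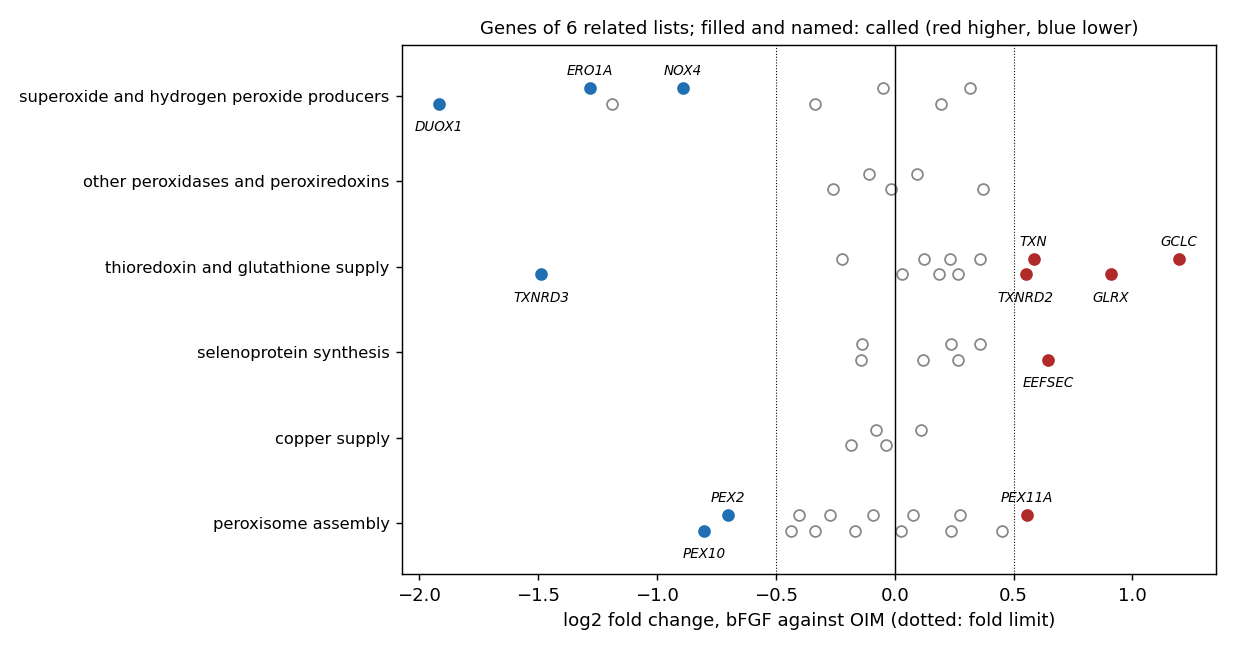
Log2 fold change in bFGF against OIM (horizontal axis) of the tested genes reported here from 6 related lists (rows). Filled and named points were called, among them NOX4 and ERO1A lower and GCLC, GLRX and TXN higher, and dotted lines stand at the fold limit of 0.5.

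The promoter window from 250 bases before to 50 bases after each RefSeq gene start was searched on both strands for 4 motifs, all of which other promoters also hold. The core of the antioxidant response element, TGACNNNGC, was in 1 of the 10 windows and in 12.3% of 19556 promoter windows. The AP-1 motif TGANTCA, the FOXO core GTAAACA and an NF-kB motif were in 0 of the 10, and in 6.08%, 2.65% and 1.9% of all windows. The single match lay 190 bases before the start of GPX4 on the opposite strand, and is shown on the strand of the gene with the matching letters in capitals.
GPX4 promoter (chr2:77324103-77324131, minus strand): ctgagagcatGCGCAGTCAcctacagcaa
The AP-1 and antioxidant motifs share their first letters and can overlap, and a match describes letters only.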

How the data were processed

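RNA from PVICs in 3 groups was sequenced, with 3 libraries per group, grouped by the sample labels. The authors deposited raw counts per gene and circRNA and estimated counts per non-coding transcript (44.6% not whole), without normalization. The submitters' notes list Trimmomatic, HISAT2 and StringTie with Sscrofa11.1, whereas the paper's methods name Cutadapt and STAR. The counting program and its use of strand are not given in the sources used here. The 19 unnamed columns were empty.

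Genes were kept by filterByExpr, scaled by TMM and fitted with edgeR 4.0.16 (quasi-likelihood, R 4.3.3) on 3 groups. P-values were adjusted over 13662 genes by Benjamini-Hochberg. Genes were called at an adjusted p up to 0.05 where the log2 fold change reached 0.5 in size. The standard error is the log2 fold change divided by the square root of F. The fit was tested on simulated data. In the reference, Sscrofa11.1, exon boundaries matched both ends of 5248 of 6179 circRNAs. Copies were searched with BLAST 2.17.0.

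All 10 genes were named, with up to 4 called genes per related list and comparison and the 3 genes most like CAT and each called member. Some genes of the related lists are counted but not reported here by name. The members and lists were chosen with earlier results of these data known. Alternatives were DESeq2 1.42.0, other scaling, filters, thresholds and samples, a replicate block and leaving out each library.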

Additional observations from a re-analysis of the deposited data

How the results depend on the processing

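In OIM against control, leaving out the fold limit moved the genes called lower from 2 to 6 of the 10 members, those of the related lists to 2 higher and 7 lower, and those of all genes from 203 and 118 to 1051 higher and 802 lower. An unadjusted p with the fold limit gave 320 higher and 229 lower of all genes. In bFGF against OIM, no fold limit gave 5 members higher, 19 and 14 genes of the related lists and 4620 and 4583 of all genes higher and lower. In bFGF against control it gave 5 members lower, 18 and 20 genes of the related lists and 4709 and 4881 of all genes. By construction that setting adds genes with small changes. With library totals alone, all genes called higher rose from 2420 to 3733 in bFGF against OIM and from 2584 to 3931 in bFGF against control, the related lists held 11 higher in bFGF against OIM, and 1 member in place of 2 was lower there, because PRDX6 was -0.46. SOD3 (0.11), GPX1 (0.15) and GPX4 (0.038) changed sign in bFGF against OIM under that scaling, and CAT ranged from -0.013, without control replicate 2, to 0.052 in bFGF against control when 1 library was left out, and was 0.25 there with library totals alone (edgeR adjusted p = 0.000191).

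The calls of SOD2, GPX3 and PRDX1 held in their comparisons under DESeq2, both other scalings, both other filters, fits on 2 groups and every fit without 1 library. Without 1 library, SOD2 ranged from -1.63 to -1.54 in bFGF against OIM, GPX3 from -0.71 to -0.52 in OIM against control, and the members called in bFGF against OIM were 2 to 3 higher, with PRDX3 added without OIM replicate 2. Same-numbered libraries did not deviate together (r from -0.032 to 0.0035 over 9 pairs, and 0 of 18 correlated best with their own number). The replicate block gave 2 members lower and 0 higher in OIM against control, 2 and 2 in each bFGF comparison, and 309, 4917 and 5285 calls over all genes in place of 321, 4939 and 5323. With at least 10 counts required in every library, which tests fewer genes, 2 in place of 4 sources of superoxide and hydrogen peroxide were called lower in bFGF against control.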

Other observations

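The deposited table also holds circular RNAs, and 1 of its 6179 circRNA rows had both ends inside a member gene. It lies in CAT (chromosome 2, 26496798 to 26519328, on the strand of the gene) and had 3 junction counts in OIM replicate 3 and 0 in the other 8 libraries, which is no more than the 3 counts that a value of 0 allows. None of the RefSeq non-coding transcripts in the table overlapped a member gene, and transcripts without a RefSeq position were not placed.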
